A study of Homo sapiens with 8 samples.

Results

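The 28 genes described here encode enzymes of cholesterol synthesis and the proteins that sense, regulate, move and export sterols. They were found as the rows of the deposited gene count table whose symbol was on the list of 28, and all 28 were present among 61517 listed genes. Of these, 25 passed the low-count filter, against 15554 genes in all, and the other 3 (ACAT2, DHCR7 and ABCG1) were at or near 0 in every library. The cells were KYSE150, an established human esophageal squamous cell carcinoma line, and their poly(A)-selected RNA was sequenced in 4 groups of 2 libraries. The groups were cells in normoxia, cells in hypoxia, cells in hypoxia with sodium oxamate, and cells in hypoxia with sodium oxamate and "NALA". Oxamate inhibits lactate dehydrogenase, and NALA is taken here to mean sodium lactate, since the treatment protocol names that salt. All 4 groups are the same line in medium with fetal bovine serum, which carries lipoprotein cholesterol. No normoxic group received oxamate. The sources used here state no oxygen level, dose or duration.

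Cells build cholesterol from acetyl-CoA. The mevalonate enzymes make farnesyl diphosphate, which also feeds other isoprenoids, and the later enzymes join it to squalene, close the rings and trim lanosterol to cholesterol. Several of these later steps, including those of squalene epoxidase (SQLE), lanosterol demethylase (CYP51A1), the methyl sterol oxidase MSMO1 and the lathosterol oxidase SC5D, consume molecular oxygen. The genes are classic targets of the transcription factors SREBP (genes SREBF1 and SREBF2), which the escort protein SCAP carries out of the endoplasmic reticulum when sterols are low. INSIG1 and INSIG2 hold SCAP back when sterols are high, and INSIG1 is itself a target of SREBP. High oxysterols activate the nuclear receptors LXR, whose targets include the cholesterol exporters ABCA1 and ABCG1 and the ubiquitin ligase MYLIP.

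The sequences upstream of 7 genes are shown because 6 of them (INSIG1, INSIG2, STARD4, MSMO1, TM7SF2 and SREBF2) were the members at least 2-fold higher in hypoxia than in normoxia, while the seventh, HMGCS1, was lower. HMGCS1 (log2 fold change -0.29) fell less than CYP51A1 (-0.46), PMVK (-0.44) and NSDHL (-0.37), which are not shown. The 7 stretches are RefSeq sequences of GRCh38.p14, written 5′ to 3′ on the strand of the gene. Each begins 250 bases before the RefSeq start and stops where the GENCODE 29 gene begins. The INSIG1 stretch is chr7:155297628-155297775 (plus strand), that of INSIG2 is chr2:118088221-118088451 (plus) and that of STARD4 is chr5:111512591-111512785 (minus). The MSMO1 stretch is chr4:165327419-165327622 (plus), that of TM7SF2 is chr11:65111622-65111844 (plus), that of SREBF2 is chr22:41832855-41833078 (plus) and that of HMGCS1 is chr5:43313513-43313662 (minus). Capitals mark every match, on either strand, to CACNCCA, a short core of the sterol regulatory element, or to ACGTG, the core of the hypoxia response element.
INSIG1: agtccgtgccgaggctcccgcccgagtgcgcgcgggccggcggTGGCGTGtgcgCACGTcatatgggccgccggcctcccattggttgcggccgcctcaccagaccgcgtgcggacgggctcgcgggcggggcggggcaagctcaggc
INSIG2: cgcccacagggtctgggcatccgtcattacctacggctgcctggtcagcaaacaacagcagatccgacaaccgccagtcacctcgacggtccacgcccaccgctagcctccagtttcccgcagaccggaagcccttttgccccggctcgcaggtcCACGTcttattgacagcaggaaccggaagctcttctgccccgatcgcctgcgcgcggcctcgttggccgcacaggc
STARD4: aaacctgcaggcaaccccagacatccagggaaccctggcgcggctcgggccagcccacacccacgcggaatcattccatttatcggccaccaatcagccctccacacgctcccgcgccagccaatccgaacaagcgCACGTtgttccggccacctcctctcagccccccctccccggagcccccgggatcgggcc
MSMO1: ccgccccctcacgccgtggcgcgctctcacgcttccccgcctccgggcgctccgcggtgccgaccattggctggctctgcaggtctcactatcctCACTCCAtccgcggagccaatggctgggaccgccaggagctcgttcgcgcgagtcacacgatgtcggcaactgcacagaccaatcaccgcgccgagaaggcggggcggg
TM7SF2: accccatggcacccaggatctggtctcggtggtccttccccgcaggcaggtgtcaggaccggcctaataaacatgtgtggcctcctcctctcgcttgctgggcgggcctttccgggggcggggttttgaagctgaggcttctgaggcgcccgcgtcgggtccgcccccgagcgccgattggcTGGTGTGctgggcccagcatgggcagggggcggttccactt
SREBF2: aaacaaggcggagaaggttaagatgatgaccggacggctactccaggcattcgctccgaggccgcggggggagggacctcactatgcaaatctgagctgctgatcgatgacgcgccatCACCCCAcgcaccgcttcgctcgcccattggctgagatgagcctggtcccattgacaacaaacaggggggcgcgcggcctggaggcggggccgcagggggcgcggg
HMGCS1: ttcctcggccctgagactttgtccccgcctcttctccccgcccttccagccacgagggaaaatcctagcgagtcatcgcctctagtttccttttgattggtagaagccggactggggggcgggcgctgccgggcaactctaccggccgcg

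Over the full 250 bases before the start, 24 of the 28 members matched a RefSeq promoter among 27305. The core CACNCCA, searched on both strands, lay in 9 of the 24 (37.5%) and in 14.5% of all promoters of this length. The longer core TCACNCCAC lay in 1 member, SREBF2, as TCACCCCAC from 133 to 125 bases before the start, and in 0.875% of all promoters. The box CCAAT, bound by NF-Y, a usual partner of SREBP, lay in 16 of the 24 (66.7%) and in 33% of all promoters. The core ACGTG lay in 6 of the 24 (25%) and in 18.7% of all promoters, and it lies within the E-box CACGTG, which 4 of the 6 also held. Among the 6 genes at least 2-fold higher in hypoxia, INSIG1, INSIG2 and STARD4 held ACGTG, while MSMO1, TM7SF2 and SREBF2 did not. The remaining members with ACGTG were ABCA1, SC5D and SCAP. In hypoxia ABCA1 (log2 fold change 0.11) and SCAP (0.01) were not called, and SC5D rose by 0.22. INSIG1 also had an E-box from 55 to 50 bases before the start, beyond the printed stretch. HMGCS1 held none of these cores but had 2 CCAAT boxes. These matches describe letters in the window and show no binding.

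Total counts ran from 21845676 to 29406061 per library. Levels are CPM, a library's counts relative to its total, scaled by TMM, which corrects for differences in RNA composition, and differences are log2 fold changes ± standard error of edgeR's quasi-likelihood test. TMM factors were 1.15 in both normoxia libraries, 1.10 in those of hypoxia, 0.88 with oxamate and 0.90 with lactate added. Small differences between hypoxia and oxamate, such as those of CYP51A1, EBP and SCAP below, therefore rest largely on this scaling. A member was called higher or lower at a Benjamini-Hochberg adjusted p under 0.05 over all 15554 tested genes. Group values are mean ± SD (n = 2 libraries). Nothing in the labels ties the libraries of one group to separate cultures, so p-values reflect library-to-library spread alone, which could be technical. In bulk RNA, fewer cells of a kind and less RNA per cell cannot be told apart. All 6 genes taken as a check of the hypoxia label were called higher in hypoxia than in normoxia (median log2 fold change 4.15). With oxamate 5 of the 6 were called lower than in hypoxia (median of all 6 -3.08), and ADM was higher. When lactate was added to oxamate all 6 were called higher (median 1.75). A rise in hypoxia and a fall with oxamate was thus not particular to the sterol genes below. The 13 squamous and epithelial markers passed the filter and summed to 7757 ± 4.19 CPM for normoxia, 5866 ± 26.2 for hypoxia, 14170 ± 71.4 for oxamate and 10267 ± 98.6 for oxamate plus lactate. Keratins carry this sum, and the list was split: 5 of the 13 rose and 7 fell in hypoxia, and 7 rose and 4 fell with oxamate. TP63, a squamous regulator, went the other way to the sum, at 125 CPM in normoxia, 246 in hypoxia and 79.9 with oxamate. The 8 leukocyte markers summed to 0.112 to 1.87 CPM, with 4 at 0 in every library, and both that passed the filter did so on low counts that were highest in hypoxia (CD3E with 14 and 29, ITGAM with 15 and 24, against 1 to 10 elsewhere). The 8 fibroblast and endothelial markers, 2 of them at 0 throughout, were highest in hypoxia (9.54 to 10.1 CPM, against 1.47 to 3.73 elsewhere), led by COL1A1 (1.71 ± 0.20 in hypoxia against normoxia). The part of these markers in the results below was not tested. The library of oxamate plus lactate numbered 1 stood apart, with 204 counts of the liver gene ALB and 21 of APOA1, while the other 7 libraries held 0 of ALB and at most 1 of APOA1. It also held 5 of the 13 counts of DHCR7 in the series. The part of this signal in the values of that group was not tested. Without that library 1 called member, TM7SF2, lost its call with lactate added and SREBF1 gained one, as given below.

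In hypoxia against normoxia, 16 of the 25 tested members were called higher and 4 lower. Among all tested genes 73.5% were called, 36.7% as higher and 36.8% as lower, against 80%, 64% and 16% of the members. The median log2 fold change of the members was 0.31, against 0.02 over all genes. At least 2-fold changes were called for 6 of the 25 members, and for 28.7% of all genes. Without regard to direction, the median absolute log2 fold change was smaller for the members (0.37) than over all genes (0.62). With oxamate in hypoxia against hypoxia alone, 6 members were called higher and 15 lower, or 24% and 60%, against 35.7% and 44.8% of all genes (80.5% called in all). Their median was -0.57, against -0.20 over all genes, and 9 of the 25 were called with at least 2-fold changes (41.8% of all genes). The median absolute log2 fold change was again smaller for the members (0.71, against 0.87 over all genes). The split over all genes depended on scaling: 5560 were higher and 6965 lower with TMM, and 5922 and 6593 with RLE size factors. With RLE size factors 7 members were higher and 14 lower. The comparisons of hypoxia with normoxia and of oxamate with hypoxia share the hypoxia libraries, so the values of each are given side by side below. With lactate added to oxamate, 10 members were called higher and 7 lower, against 33.2% and 31.7% of all genes (64.9% called). This split depended on scaling, since upper quartile normalization gave 9 higher and 10 lower. Against hypoxia, oxamate plus lactate gave 6 higher and 12 lower (40.2% of all genes lower, 38.5% higher, 78.6% called), or 4 and 18 with upper quartile normalization. Oxamate in hypoxia against normoxia gave 11 higher and 11 lower (31.9% and 40.1% of all genes, 72% called).

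**Figure D1:**
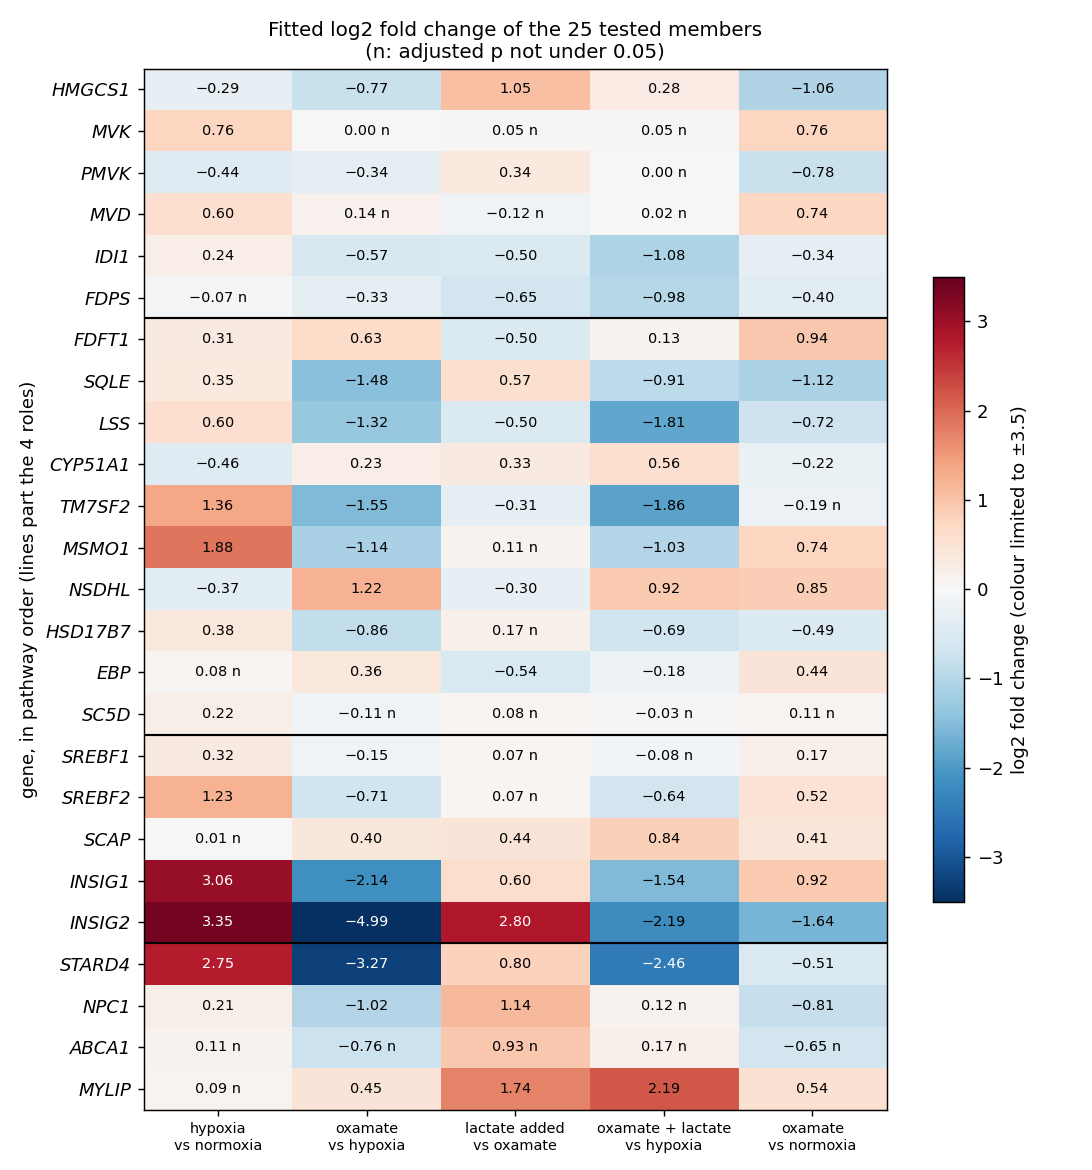
Fitted log2 fold change of the 25 tested members (rows, in pathway order and parted by role) in 5 comparisons (columns), with n where the adjusted p was not under 0.05. Among the darkest cells are INSIG1, INSIG2 and STARD4, higher in hypoxia than in normoxia (3.06, 3.35 and 2.75) and lower with oxamate than in hypoxia alone (-2.14, -4.99 and -3.27).

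The largest differences in hypoxia were those of INSIG2, INSIG1 and the carrier STARD4. INSIG2 (ENSG00000125629, GRCh38 chromosome 2, 118088452 to 118110997), one of the proteins that retain SCAP, was at 12.8 and 14.3 CPM in the normoxia libraries, 136 and 140 in those of hypoxia, 5.30 and 3.36 under oxamate, and 31.2 and 29.5 under oxamate plus lactate. No 2 groups overlapped: hypoxia was the highest and oxamate the lowest, below normoxia. INSIG2 rose by 3.35 ± 0.08 in hypoxia (10.2-fold, adjusted p = 4.56e-16) and changed with oxamate by -4.99 ± 0.10 (31.8-fold lower, adjusted p = 2.65e-17). It rose by 2.80 ± 0.12 when lactate was added to oxamate (adjusted p = 2.83e-12) but stayed 4.57-fold below hypoxia alone. With oxamate it was also below normoxia (-1.64 ± 0.13).

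INSIG1 (ENSG00000186480, chromosome 7, 155297776 to 155310235), its paralog, was at 15.2 and 14.9 CPM in the normoxia libraries, 126 and 125 in those of hypoxia, 28.6 and 28.2 under oxamate, and 39.3 and 46.5 under oxamate plus lactate. These groups did not overlap either, but here normoxia was the lowest. INSIG1 rose by 3.06 ± 0.06 in hypoxia (8.35-fold, adjusted p = 1.21e-20) and changed by -2.14 ± 0.06 with oxamate (4.41-fold lower). With oxamate it thus remained above normoxia (0.92 ± 0.08), where INSIG2 was below it. Lactate added to oxamate gave 0.60 ± 0.07 for INSIG1. The ratio of INSIG1 to INSIG2 within a library was 1.19 and 1.04 for normoxia, 0.924 and 0.888 for hypoxia, 5.39 and 8.398 for oxamate, and 1.26 and 1.57 for oxamate plus lactate. The oxamate libraries thus stood apart in the balance of the paralogs, in CPM not corrected for gene length.

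SREBF2, which encodes the SREBP most tied to cholesterol genes, was at 48.8 and 47.8 CPM in normoxia and at 114 and 112 in hypoxia. With oxamate it was at 67.3 and 71.0, and with lactate added at 72.3 and 72.9. Hypoxia was the highest group and normoxia the lowest. SREBF2 rose by 1.23 ± 0.04 in hypoxia (adjusted p = 1.09e-16), changed by -0.71 ± 0.04 with oxamate, and did not pass when lactate was added (0.07 ± 0.05, adjusted p = 0.189). SREBF1, whose products act mainly on fatty acid genes, moved less, at 90.6 and 96.1 CPM in the normoxia libraries, 117 and 116 in those of hypoxia, 106 and 105 under oxamate, and 104 and 116 under oxamate plus lactate. It rose by 0.32 ± 0.05 in hypoxia. Its call as lower with oxamate (-0.15 ± 0.05, adjusted p = 0.00621) ended without oxamate replicate 1 (-0.05) or 2 (-0.04). Leaving out either library also moved the median of all genes in that comparison, from -0.20 to -0.11. With lactate added SREBF1 did not pass (0.07 ± 0.05). It was called higher without lactate replicate 1 (0.14), the library with ALB counts, while with upper quartile normalization SREBF1 and SREBF2 were called lower instead (-0.13 and -0.12). SREBF1 shares 6.92% of its exon bases with RAI1 on the other strand, which had a similar level, and strand was not stated.

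SCAP, the escort, was at 63.7 and 68.5 CPM in normoxia and 67.1 and 66.5 in hypoxia, and these groups overlapped (0.01 ± 0.05, adjusted p = 0.829). It was at 90.3 and 86.0 with oxamate and at 114 and 125 with lactate added. SCAP therefore rose with oxamate over hypoxia (0.40 ± 0.05) and again with lactate added (0.44 ± 0.05), a course opposite to that of SREBF2 and the INSIG genes in the oxamate comparison.

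**Figure D2:**
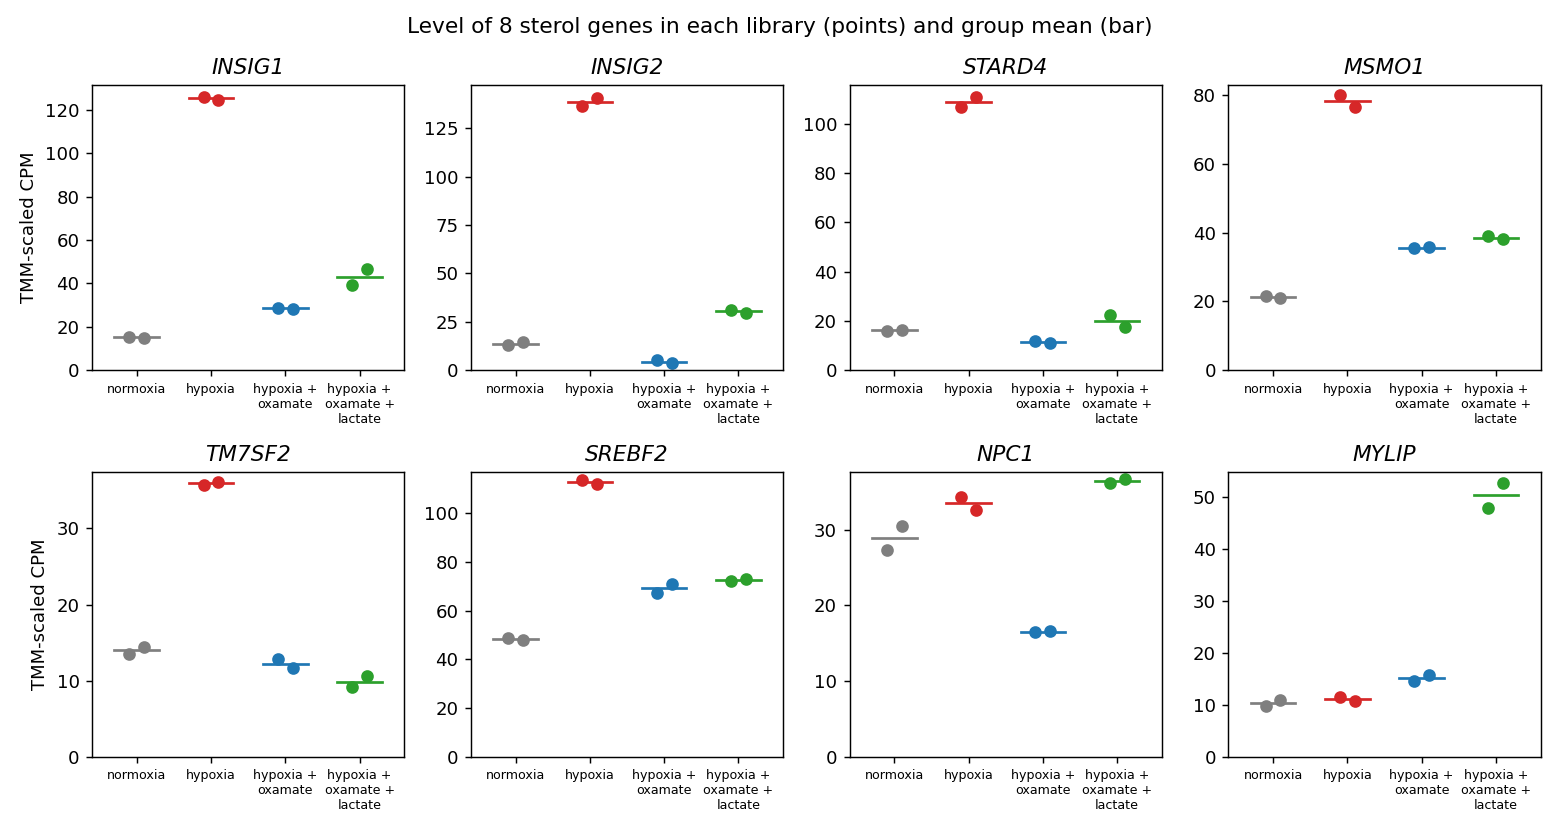
TMM-scaled CPM (vertical axes, each from 0) of 8 members in the 4 groups, with a point per library and a bar at the group mean. INSIG1, INSIG2, STARD4, MSMO1, TM7SF2 and SREBF2 were highest in hypoxia, while NPC1 was lowest with oxamate (16.5 and 16.6) and MYLIP highest with lactate added (47.8 and 52.7).

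Of the 7 members of the mevalonate arm, 6 were tested, and in hypoxia 3 rose, 2 fell and FDPS did not pass. These shares (50% and 33.3%) are not far from those of all tested genes (36.7% and 36.8%). HMGCS1, the synthase that commits acetyl units to the pathway, was at 53.1 and 56.0 CPM in the normoxia libraries, 43.9 and 45.5 in those of hypoxia, 25.4 and 27.0 under oxamate, and 55.1 and 53.3 under oxamate plus lactate. The oxamate libraries were the lowest, and those with lactate lay within the range of the normoxia libraries. HMGCS1 changed by -0.29 ± 0.05 in hypoxia, by -0.77 ± 0.06 with oxamate and by 1.05 ± 0.06 when lactate was added (adjusted p = 5.18e-13). IDI1, the isomerase of isopentenyl diphosphate, took another course: 56.8 and 55.0 CPM in the normoxia libraries, 64.03 and 67.6 in those of hypoxia, 44.95 and 43.6 under oxamate, and 31.3 and 31.2 under oxamate plus lactate. It was lower with oxamate (-0.57 ± 0.05) and lower again with lactate (-0.50 ± 0.06), ending at -1.08 ± 0.05 against hypoxia.

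FDPS, the farnesyl diphosphate synthase, also fell in both steps, from 114 ± 1.85 CPM in hypoxia to 90.4 ± 1.52 with oxamate and 57.7 ± 3.35 with lactate (-0.33 ± 0.04 and -0.65 ± 0.05). MVK, mevalonate kinase, rose in hypoxia from 21.8 ± 0.00792 to 36.9 ± 3.05 CPM (0.76 ± 0.07) and was at 37.0 ± 0.0314 with oxamate and 38.2 ± 0.421 with lactate. It shares 4.72% of its exon bases with MMAB on the other strand, which was at 85.8% of its level. MVD, mevalonate diphosphate decarboxylase, rose in hypoxia (0.60 ± 0.07). It did not pass with oxamate (0.14 ± 0.07), but did without hypoxia replicate 1 (0.20) or oxamate replicate 1 (0.23) or 2 (0.27). PMVK, phosphomevalonate kinase, was lower in hypoxia (-0.44 ± 0.10) and with oxamate (-0.34 ± 0.11) and higher with lactate added (0.34 ± 0.11). The last 2 of these calls ended when single libraries were left out: without oxamate replicate 1 they were -0.28 and 0.29, without oxamate replicate 2 they were -0.19 and 0.19, and without lactate replicate 2 the last was 0.29. Both also ended with DESeq2. Leaving out either oxamate library, or using DESeq2, also moved the median of all genes, as given in the last section.

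Of the 10 tested members of the squalene and sterol arm, 7 rose in hypoxia (70%, against 36.7% of all tested genes), 2 fell (20%, against 36.8%) and EBP did not pass. The increases ran from 0.22 ± 0.06 in SC5D to 1.88 ± 0.05 in MSMO1. MSMO1 (ENSG00000052802, chromosome 4, 165327623 to 165343160), which oxidises methyl groups of the sterol, was at 21.7 and 21.0 CPM in the normoxia libraries, 80.1 and 76.7 in those of hypoxia, 35.4 and 35.8 under oxamate, and 38.9 and 38.0 under oxamate plus lactate. Hypoxia was the highest group and normoxia the lowest. MSMO1 changed by -1.14 ± 0.05 with oxamate and did not pass with lactate added (0.11 ± 0.06, adjusted p = 0.090).

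TM7SF2, a sterol reductase that acts after CYP51A1, was at 13.5 and 14.5 CPM in the normoxia libraries, 35.7 and 36.1 in those of hypoxia, 12.9 and 11.6 under oxamate, and 9.10 and 10.6 under oxamate plus lactate. It rose by 1.36 ± 0.08 in hypoxia, fell by 1.55 ± 0.08 on the log2 scale with oxamate, and with oxamate did not pass against normoxia (-0.19 ± 0.09, adjusted p = 0.062), though it did with no low-count filter (-0.23). Its small difference with lactate added (-0.31 ± 0.10) did not pass without lactate replicate 1 (-0.21), the library with ALB counts. TM7SF2 overlaps VPS51 on the same strand over 0.469% of its exon bases, a gene at 418% of its level. LSS, which closes the sterol rings, was at 35.9 and 34.4 CPM in the normoxia libraries, 51.0 and 55.4 in those of hypoxia, 20.8 and 21.9 under oxamate, and 13.8 and 16.3 under oxamate plus lactate. LSS rose by 0.60 ± 0.06 in hypoxia and was lower with oxamate (-1.32 ± 0.07) and lower again with lactate (-0.50 ± 0.09).

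SQLE, squalene epoxidase, was at 42.4 and 42.3 CPM in the normoxia libraries, 54.2 and 54.1 in those of hypoxia, 19.5 and 19.5 under oxamate, and 28.6 and 29.1 under oxamate plus lactate. It rose by 0.35 ± 0.05 in hypoxia, changed by -1.48 ± 0.06 with oxamate (adjusted p = 3.36e-16) and rose by 0.57 ± 0.06 with lactate. FDFT1, squalene synthase, the step before SQLE, rose in hypoxia (0.31 ± 0.04), rose with oxamate from 74.1 ± 0.772 to 115 ± 0.0888 CPM (0.63 ± 0.04) and fell to 81.0 ± 1.17 with lactate (-0.50 ± 0.04). CYP51A1, the lanosterol demethylase after LSS, fell in hypoxia from 139 ± 3.15 to 102 ± 5.17 CPM (-0.46 ± 0.04). It was higher with oxamate (0.23 ± 0.04) and higher again with lactate (0.33 ± 0.04), reaching 150 ± 4.80 CPM. Its raw counts were 2888 and 2992 in hypoxia and 3132 and 2910 with oxamate, where library totals were larger. Its rise with oxamate thus rests on the scaling.

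NSDHL, the sterol dehydrogenase that follows MSMO1, was at 27.0 and 28.99 CPM in the normoxia libraries, 22.7 and 20.7 in those of hypoxia, 51.9 and 49.2 under oxamate, and 41.1 in both lactate libraries. Hypoxia was the lowest group and oxamate the highest. NSDHL fell in hypoxia (-0.37 ± 0.07), rose with oxamate (1.22 ± 0.06) and fell when lactate was added (-0.30 ± 0.06). EBP, the sterol isomerase, rose with oxamate (0.36 ± 0.04) and fell with lactate (-0.54 ± 0.05), within 62.1 ± 1.27 to 90.3 ± 0.292 CPM. HSD17B7, the ketosteroid reductase of the pathway, rose in hypoxia by 0.38 ± 0.12, a call that ended without hypoxia replicate 2 (0.29) or normoxia replicate 1 (0.36) or with DESeq2 (adjusted p = 0.0652), and changed by -0.86 ± 0.13 with oxamate. SC5D passed in 1 of the 5 comparisons, hypoxia against normoxia, and without normoxia replicate 2 that call ended (0.13). In oxamate against normoxia (0.11 ± 0.07) it did pass without oxamate replicate 2 (0.22), with RLE size factors (0.19) and when these 2 groups were fitted by themselves (0.19). Its group means stayed between 30.3 ± 2.49 and 35.1 ± 0.339 CPM.

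**Figure D3:**
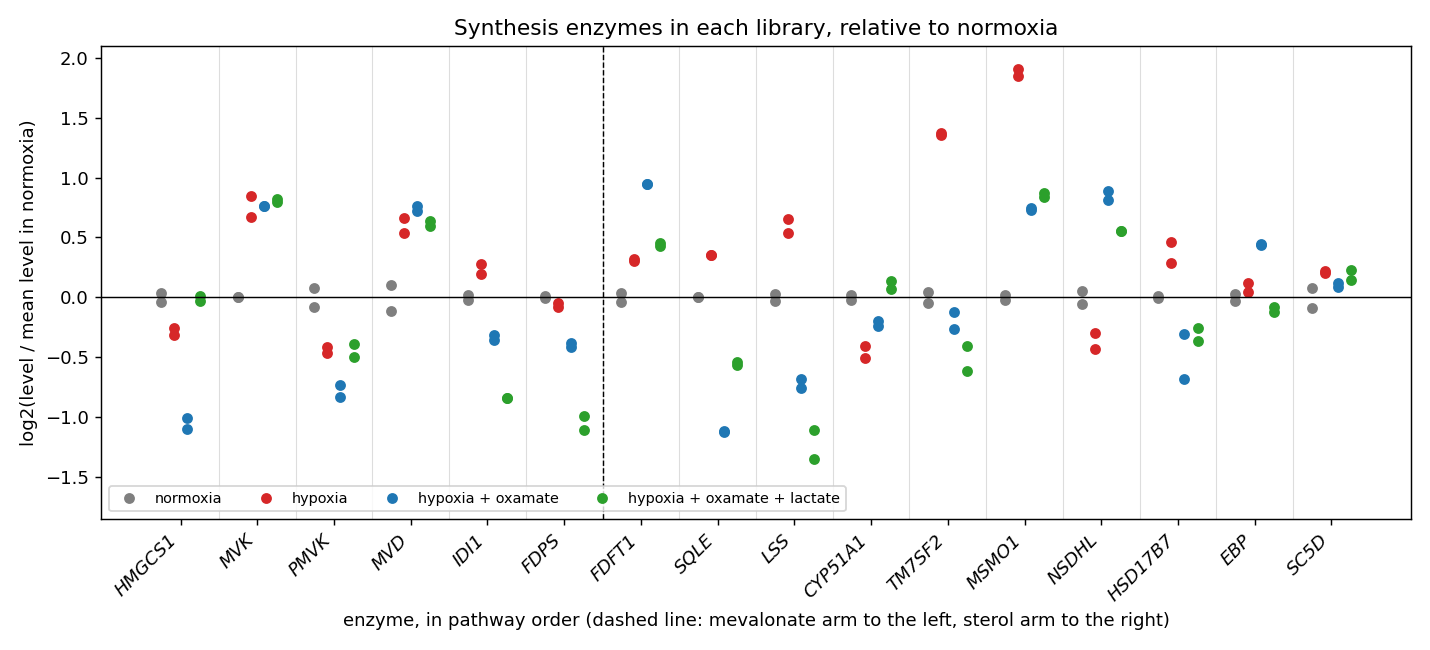
Level of the 16 tested synthesis enzymes in each library, as log2 of the level over the mean in normoxia (vertical axis), in pathway order (horizontal axis), coloured by group with 2 points per group. MSMO1 and TM7SF2 stand out in hypoxia, while FDFT1 and NSDHL lie highest with oxamate and HMGCS1 and SQLE lowest with it.

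Summed over the 18 synthesis enzymes, the level was 729 ± 8.30 CPM for normoxia, 836 ± 3.88 for hypoxia, 740 ± 5.91 for oxamate and 689 ± 7.71 for oxamate plus lactate. Without TMM, as CPM of the library totals, the sums were 839 ± 10.1, 917 ± 6.62, 651 ± 4.96 and 620 ± 6.69, so that oxamate lay below normoxia rather than slightly above it. The squalene and sterol arm summed to 445 ± 5.27 CPM in normoxia and 536 ± 6.94 in hypoxia, and the mevalonate arm to 284 ± 3.02 and 300 ± 3.06. The sums weigh abundant genes most and carry no test.

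Among genes of sterol transport, STARD4 (ENSG00000164211, chromosome 5, 111496033 to 111512590), a carrier of cholesterol between membranes, was at 15.9 and 16.3 CPM in the normoxia libraries, 107 and 111 in those of hypoxia, 11.7 and 10.96 under oxamate, and 22.2 and 17.7 under oxamate plus lactate. It followed the course of INSIG2, with hypoxia far above the other groups and oxamate the lowest. STARD4 rose by 2.75 ± 0.07 in hypoxia (6.75-fold, adjusted p = 1.38e-18), changed by -3.27 ± 0.08 with oxamate (9.62-fold lower) and rose by 0.80 ± 0.10 with lactate added. NPC1, which lets cholesterol out of lysosomes, was at 27.4 and 30.5 CPM in the normoxia libraries, 34.3 and 32.7 in those of hypoxia, 16.5 and 16.6 under oxamate, and 36.2 and 36.7 under oxamate plus lactate. Oxamate stood below all other groups. NPC1 changed by -1.02 ± 0.07 with oxamate and 1.14 ± 0.07 with lactate, which left it at 0.12 ± 0.07 against hypoxia (adjusted p = 0.0935). Its rise in hypoxia (0.21 ± 0.06) did not pass without hypoxia replicate 1 (0.17) or normoxia replicate 1 (0.13) or with DESeq2 (adjusted p = 0.0534). NPC1 shares 5.98% of its exon bases with RMC1 on the other strand, at 81.7% of its level.

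MYLIP (ENSG00000007944, chromosome 6, 16129125 to 16148248), whose product marks lipoprotein receptors for degradation, was at 9.78 and 10.9 CPM in the normoxia libraries, 11.4 and 10.7 in those of hypoxia, 14.5 and 15.7 under oxamate, and 47.8 and 52.7 under oxamate plus lactate. Normoxia and hypoxia overlapped (0.09 ± 0.10, adjusted p = 0.394), and the lactate libraries lay far above all others. MYLIP rose by 1.74 ± 0.08 when lactate was added to oxamate (adjusted p = 1.16e-14) and was 2.19 ± 0.08 above hypoxia. It was the member with the largest increase over hypoxia in the oxamate plus lactate group. The cholesterol exporters were at or near 0. ABCA1 had 10 and 25 counts in the normoxia libraries, 22 and 15 in those of hypoxia, 11 and 8 under oxamate, and 13 and 19 under oxamate plus lactate, and did not pass in any of the 5 comparisons, with adjusted p between 0.117 and 0.836. At this depth the standard error of its log2 fold change was at least 0.46. ABCG1 had 0 counts in all 8 libraries, where 3 counts would correspond to 0.0948 to 0.153 CPM, a limit that covers counting error only.

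The other members left out of the test were enzymes of synthesis. ACAT2, the thiolase that makes acetoacetyl-CoA, had 1 to 13 counts per library and shares 9.24% of its exon bases with TCP1 on the other strand, a far more abundant gene (377 CPM). Also on the other strand, it shares 33.9% with SOD2-OT1 (0.0102 CPM) and 26.5% with an SOD2 entry for which no level was available. DHCR7, the last reductase of one branch, was listed at 0 in both normoxia and both oxamate libraries, at 6 and 2 counts in hypoxia and at 5 and 0 with lactate. The reason for these low counts was not tested.

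Levels of different genes were compared per kilobase of exon in GENCODE 29. In normoxia the highest members were CYP51A1, FDPS and EBP, with levels of 38.9, 32.1 and 27.6 CPM per kb, and INSIG1 and INSIG2 were at 4.11 and 3.42. In hypoxia INSIG2 (35.0) and INSIG1 (34.3) were the highest members per kb, above FDPS (30.6), EBP (29.2) and CYP51A1 (28.4). With oxamate the highest were EBP (37.5), CYP51A1 (33.3) and NSDHL (25.3), with INSIG2 at 1.10. The mean was highest in hypoxia for 12 of the 25 tested members, and for 32% of all tested genes. Of these 12, SC5D did not pass between hypoxia and oxamate or between hypoxia and oxamate plus lactate. SREBF1 did not pass between hypoxia and oxamate plus lactate. The mean was highest with oxamate for 4 of the 25 (EBP, FDFT1, MVD and NSDHL), and for 22.5% of all tested genes. Of these 4, MVD did not pass between oxamate and hypoxia. With lactate added it was highest for 6 of the 25 (ABCA1, CYP51A1, MVK, MYLIP, NPC1 and SCAP), near the 21.5% of all tested genes. Of these 6, ABCA1, MVK and NPC1 did not pass between oxamate plus lactate and hypoxia.

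Other genes around the pathway were taken from 6 lists with 67 genes. Their counts are to be read against all tested genes, of which 36.7% were higher and 36.8% lower in hypoxia, and 35.7% and 44.8% with oxamate. Of 13 tested genes on a list of SREBP targets, mainly fatty acid genes, 4 rose (30.8%) and 8 fell (61.5%) in hypoxia. With oxamate 6 rose and 6 fell (46.2% each), near the share over all genes. SCD, the stearoyl-CoA desaturase, was at 268 and 264 CPM in the normoxia libraries, 1272 and 1260 in those of hypoxia, 264 and 263 under oxamate, and 263 and 271 under oxamate plus lactate. It rose by 2.25 ± 0.03 in hypoxia and changed by -2.26 ± 0.03 with oxamate, and with oxamate it did not pass against normoxia (adjusted p = 0.704). TMEM97, a sterol-responsive membrane protein gene rather than a fatty acid gene, fell in hypoxia (-1.54 ± 0.08). MID1IP1, an activator of fatty acid synthesis, fell with oxamate (-1.92 ± 0.11).

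Of 10 genes of SREBP processing and degradation, 2 rose (20%) and 6 fell (60%) in hypoxia. With oxamate 4 rose and 4 fell (40% each), near the share over all genes. ERLIN2, a membrane scaffold of the degradation of sterol sensors, was lower in hypoxia than in normoxia (-1.17 ± 0.06) and higher with oxamate than in hypoxia (0.90 ± 0.06), where it was still below normoxia (-0.26 ± 0.05). FBXW7, which marks nuclear SREBP for degradation, rose with oxamate (1.00 ± 0.08). Of 12 genes of other isoprenoid branches, 2 rose (16.7%) and 6 fell (50%) in hypoxia, and 7 rose (58.3%) and 2 fell (16.7%) with oxamate. ICMT, which methylates prenylated proteins, fell by 1.94 ± 0.04 on the log2 scale in hypoxia and rose by 1.73 ± 0.05 with oxamate.

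Of 14 tested genes of cholesterol esters and trafficking, 8 rose (57.1%) and 3 fell (21.4%) in hypoxia. With oxamate 4 rose (28.6%) and 7 fell (50%), near the share over all genes. GRAMD1C, which moves cholesterol between membranes, rose by 1.86 ± 0.09 in hypoxia and changed by -3.03 ± 0.11 with oxamate. SOAT1, which esterifies cholesterol, was lower in hypoxia (-1.11 ± 0.07) and higher with oxamate (0.74 ± 0.07). Of 8 tested genes around LXR, 2 rose and 2 fell in hypoxia (25% each). With oxamate 2 rose (25%) and 4 fell (50%), near the share over all genes. RXRB, a receptor partner of LXR, rose in hypoxia (0.86 ± 0.07) and was lower with oxamate (-1.04 ± 0.07). Of 6 enzymes of oxysterol and bile acid synthesis, CYP39A1 and HSD3B7 passed the filter. CYP39A1 reached the minimum count of 10 in the hypoxia libraries alone (12 and 15 counts, against 1 to 7 in the others), and no difference is read from it. HSD3B7, a bile acid enzyme, rose in hypoxia (0.52 ± 0.09) and was lower with oxamate (-0.73 ± 0.09).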

How the data were processed

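The authors deposited 1 table of raw counts per gene with 8 library columns, and the values are whole numbers without normalization. Per the submitters' processing notes, which give no roles, the tools were RSEM 1.3.3, STAR 2.7.8a and FastQC 0.11.9 and the build hg38 (GRCh38), and the counts may be rounded RSEM estimates. The sources used here state neither strandedness nor annotation release. Genes were kept by filterByExpr (minimum count 10), scaled by TMM and fitted in edgeR 4.0.16 (R 4.3.3) with 4 group means, 8 libraries and 4 residual degrees of freedom. edgeR's common biological variation was 3.06% (coefficient of variation), and replicates differed by more than sampling noise. The chi-square per degree of freedom was 1.84 for normoxia, 2.09 for hypoxia, 2.03 for oxamate and 4.78 for oxamate plus lactate. All 4 groups shared 1 estimate of the spread, so standard errors and p-values of comparisons with the lactate group may be too small. Data of 15554 genes were simulated for hypoxia against normoxia, with 67 genes changed 1.5-fold, 67 changed 2-fold and 66 changed 4-fold. There, 70.1% of the 1.5-fold and 82.1% of the 2-fold changes were recovered, with 11 of 175 calls false. In the real comparison 73.5% of genes were called, a far larger share, so these rates need not hold for it.

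Standard errors came from the F statistic. Positions, lengths and overlaps are from GENCODE 29, and 13 members share exon bases with another gene, 5 with one at 10% or more of their level. The members and lists were chosen with earlier results of these data known. All members are named. Library values are given for members called with an absolute log2 fold change of at least 1 in any comparison and for the sterol regulators, ABCA1, ABCG1 and MYLIP. Of each other list, at most the 2 genes with the largest called change in hypoxia against normoxia and in oxamate against hypoxia could be named. Alternatives were RLE and upper quartile scaling, no filter, DESeq2 1.42.0, a replicate block, the 2 compared groups alone, and each library left out.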

Additional observations from a re-analysis of the deposited data

How the results depend on the processing

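Counts of called members stayed within 1.5 times under every alternative. Called members ran from 18 to 22 in hypoxia against normoxia, 19 to 22 with oxamate, 16 to 19 with lactate added, 21 to 23 for oxamate against normoxia and 17 to 22 for oxamate plus lactate against hypoxia. Of 1250 values of the 25 tested members under an alternative, 1195 kept their side of the threshold (called ones also their direction), 29 lost the call, 21 gained it and 5 turned. Upper quartile normalization, which moved the median of all genes from -0.02 to -0.21 with lactate added and from -0.05 to -0.31 for oxamate plus lactate against hypoxia, gave all 5. With it, oxamate plus lactate against hypoxia was called at -0.13 for FDFT1, -0.24 for MVD and -0.21 for MVK, and lactate added to oxamate at -0.13 for SREBF1 and -0.12 for SREBF2. The cause was not tested. For oxamate against hypoxia the median of all genes moved from -0.20 to -0.11 with RLE size factors or DESeq2. It moved to -0.09 with the 2 groups alone and to -0.11 without either oxamate library. With lactate added it moved from -0.02 to -0.10 without oxamate replicate 1 and to -0.09 without replicate 2. Whether calls that changed there did so through scaling or through the library left out was not tested. Same-numbered libraries did not deviate together (correlations from -0.05 to 0.01). With the replicate number as a block the called members were 20, 21, 17, 22 and 18 in hypoxia, oxamate, lactate added, oxamate against normoxia and oxamate plus lactate against hypoxia, as without it, and no member's call changed. SREBF1 with oxamate also lost its call with RLE size factors (-0.07), DESeq2 (-0.07) and the 2 groups alone (-0.04). Further calls ended for CYP51A1 (-0.11, without oxamate replicate 2), HSD17B7 (-0.21, without oxamate replicate 1) and SREBF1 (0.12, without normoxia replicate 1) in oxamate against normoxia, and for FDFT1 (0.12, without hypoxia replicate 2) in oxamate plus lactate against hypoxia. DHCR7 passed in hypoxia without the low-count filter, on 8 counts against 0 (adjusted p = 0.0494 with edgeR). Low or absent counts limit what can be read for ABCA1, ACAT2, DHCR7 and ABCG1.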
